A study of Homo sapiens with 4 samples.

Results

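U6 small nuclear RNA (snRNA) genes and pseudogenes were examined in small RNA libraries of cells that ran on transfected RNA polymerase II. Members were the features whose GENCODE symbol begins with RNU6- and whose raw counts, summed over all 4 libraries, came to at least 10, so they were chosen by the summed count itself. This rule took 132 of the 7062 features in the deposited tables and 132 of the 1257 features with an RNU6- symbol. Of the other RNU6- features, 900 held no count and 225 held between 1 and 9 counts, 806 counts in all. U6atac genes were kept apart.

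U6 is the most conserved of the spliceosomal snRNAs and the one that lies at the catalytic core of the spliceosome. It enters on the U4/U6.U5 tri-snRNP, is released from its pairing with U4, and then pairs with the 5′ splice site through its ACAGAGA box and with U2 around its AGC triad. Unlike the other major spliceosomal snRNAs, it is made by RNA polymerase III from short genes with promoters outside the transcribed part, and reverse transcription of U6 RNA has scattered a large number of pseudogenes over the human genome. It is also a common reference RNA in measurements of small RNAs.

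The samples were HEK293T cells (labelled HEK293), an embryonic kidney line, transiently transfected with plasmids for RPB1, the polymerase subunit with the C-terminal domain of heptad repeats. In the 52X WT group this domain was wild type, and in the 52X T4A group it carried alanine for the threonine at heptad position 4. Wells of both groups were transfected with 1.5 µg of plasmid and then selected over 72 h with α-amanitin at 2.5 µg/ml, which acts on the cells' own enzyme, so the polymerase in the controls was a transfected one too and the cells were a selected pool, not a clone. Total RNA was read as single-end small RNA libraries of 50 bp, 2 libraries per group. The comparison of the groups asks which small RNAs depend on Thr4 of the domain.

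Library totals ranged from 16180790 to 27370127 counts, and the U6 members held 3554 of 78905264 counts, or 0.0045%. A member's summed count had a median of 15 and a range of 10 to 118. There were 75 members under 20 counts and 21 members with 50 or more, and 16 members were at 0 in at least 1 library. Counting error was therefore a large part of the value of any single member. Of the 132 members, 91 were 107 bases long, so their counts can be set side by side without a correction for length. Small RNA tables hold no defining markers of HEK293T cells, so the cell label could not be checked. Levels are given as CPM, the counts per 1000000 counts of the library, unless TMM scaling is named. As for miRNA genes of other cells, all 6 listed muscle genes had counts and their sum was 94.6 and 94.2 CPM in 52X T4A against 27.5 and 32.5 in 52X WT, and the 3 leukocyte genes, all with counts, summed to 1.98 and 2.23 CPM against 0.556 and 1.10. For both lists the groups did not overlap. The liver, erythroid and neuron genes, all detected, overlapped between the groups, at 0.185 to 10.9 CPM in sum. The part of these values in the U6 results was not tested.

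RNU6-1 encodes the functional U6 RNA and served as the reference for sequence comparisons, with positions counted from 1 at its 5′ end. A read of 50 bp spans only part of its 107 bases, of which the ACAGAGA box takes positions 41 to 47 and the AGC triad 53 to 55. Coordinates are those of the deposited tables (hg38). RNU6-7 and RNU6-8 had the same sequence and differed from RNU6-1 by T107G alone, at the last base of the terminal U run. RNU6-33P carried G12A and RNU6-17P carried C66A, each as the only difference from RNU6-1.

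The 5 genes known to encode functional U6, RNU6-1, RNU6-2, RNU6-7, RNU6-8 and RNU6-9, held similar raw counts. In 52X T4A replicates 1 and 2 and 52X WT replicates 1 and 2, in this order, RNU6-1 (ENSG00000206625.1, chr15:67839939-67840045) had 19, 21, 15 and 19 counts. RNU6-2 (ENSG00000207357.1, chr19:1021522-1021628) had 19, 22, 7 and 15 counts. RNU6-9 (ENSG00000207507.1, chr19:893484-893590), the highest of the 5 in total, had 20, 26, 13 and 25 counts. These 3 genes have identical sequence, and the groups overlapped for each of them in TMM-scaled CPM (defined below). RNU6-7 (ENSG00000201654.1, chr14:32202045-32202151) had 13, 31, 14 and 17 counts. RNU6-8 (ENSG00000202337.1, chr14:32203163-32203269, minus strand), on the opposite strand and separated from RNU6-7 by 1011 bases, had 17, 23, 15 and 11 counts. Their summed counts of 75 and 66 lay within the range of 63 to 84 of the functional genes. Together the 5 genes held 88, 123, 64 and 87 counts, which was 5.44, 4.49, 3.95 and 4.54 CPM, and the groups overlapped.

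A functional gene could not be told from its nearest pseudogenes by its counts. Of the 132 members, 7 had exactly the sequence of RNU6-1: RNU6-1, RNU6-2, RNU6-9 and the pseudogenes RNU6-3P, RNU6-4P, RNU6-5P and RNU6-6P. Their summed counts ran from 63 to 84. Within a library their counts spread as 15 to 20 and 21 to 32 in the 52X T4A libraries and as 6 to 16 and 12 to 25 in the 52X WT libraries. The variance of the 7 counts divided by their mean was 0.155, 0.809, 1.25 and 1.00, where independent random placement of reads gives 1. The 7 loci thus differed by no more than about counting error in 3 libraries and by less than that in 52X T4A replicate 1, and the counts do not separate RNU6-1 from its copies. How reads that match several places were assigned is not given in the sources used here.

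Copies of identical sequence also differed in the direction of their group difference. RNU6-17P (ENSG00000206972.1, chr15:30254402-30254508) had 20, 26, 11 and 12 counts and RNU6-18P (ENSG00000207257.1, chr15:32284152-32284258) had 11, 19, 13 and 22 counts. After TMM scaling, which sets library sizes so that the trimmed mean of feature ratios is level, RNU6-17P stood at 1.26 and 0.823 CPM in 52X T4A against 0.754 and 0.637 in 52X WT, with no overlap and the 52X T4A libraries higher. RNU6-18P, with the same 107 bases, stood at 0.695 and 0.602 CPM against 0.891 and 1.17, with no overlap and the 52X T4A libraries lower. Their log2 fold changes in edgeR were 0.55 ± 0.49 (SE, 2 libraries per group) and -0.69 ± 0.47, and neither passed (adjusted p = 0.668 and 0.584). Summed, the pair held 1.92, 1.64, 1.48 and 1.77 CPM of library totals and the groups overlapped. The 5 sets of identical members, which held 16 members in all, had summed-set log2 ratios of 52X T4A over 52X WT between 0.13 and 0.38 on the scale of library totals.

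**Figure D1:**
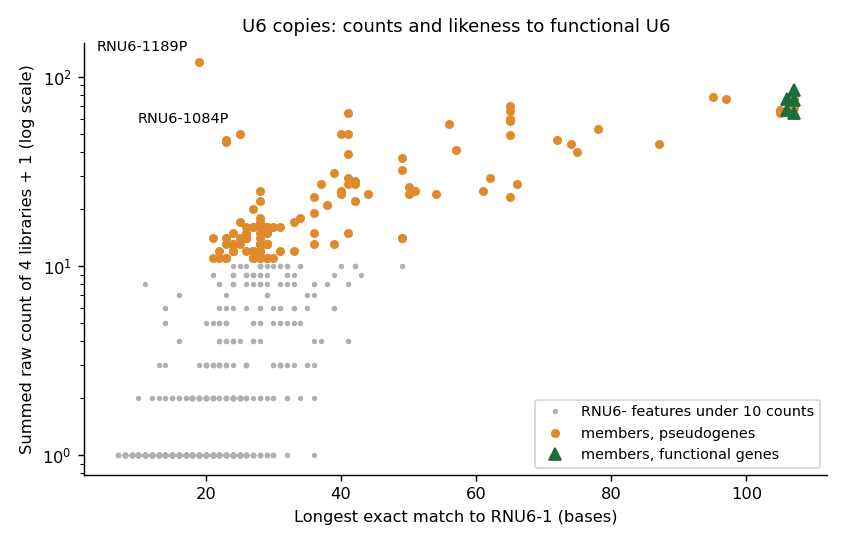
Summed raw count of the 4 libraries plus 1 (log scale) against the longest run of bases that a feature shares exactly with RNU6-1, for all 1257 RNU6- features. The functional genes (triangles) and near-identical pseudogenes share 90 or more bases and hold 63 to 84 counts, most features with short matches hold none, and RNU6-1189P stands apart with 118 counts and a match of 19 bases.

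The counts of U6 copies followed their likeness to functional U6 RNA. The 13 features that share a run of at least 90 bases with RNU6-1 were all members and held a median of 73 counts. Over all RNU6- features the median fell to 44 counts for a longest match of 60 to 89 bases (14 features), 23.5 for 40 to 59 bases (30 features), 5 for 30 to 39 bases (69 features) and 2 for 25 to 29 bases (175 features), and it was 0 for shorter matches. Over the 1257 features, Spearman's rho between longest match and summed count was 0.656 and Pearson's r was 0.815, and over the members alone they were 0.694 and 0.779. These describe features that share libraries and sequence, and the member values are bounded by the rule. Identity over the whole length, with a median of 89.7% in members and 81.3% in the others, followed the counts less closely over all RNU6- features (rho = 0.409).

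One stretch of U6 was common to almost all members. The window of 20 bases at positions 40 to 59, which contains the ACAGAGA box and the AGC triad, was present exactly in 119 of 132 members (90.2%) and in 78 of the 1125 other RNU6- features (6.93%). The 78 others that hold it had a median of 5.5 counts and 5 of them were at 0. Windows elsewhere were shared by fewer members, down to 20 members for positions 60 to 79. The 7-base ACAGAGA box alone was found in 129 members (97.7%) and in 553 others (49.2%), searched on the transcript strand only. RNU6-1189P has C42G inside the box and was 1 of the 13 members without the window. There were 26 members with no window of 20 bases of their own, that is, each of their windows occurs in another RNU6- feature too.

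**Figure D2:**
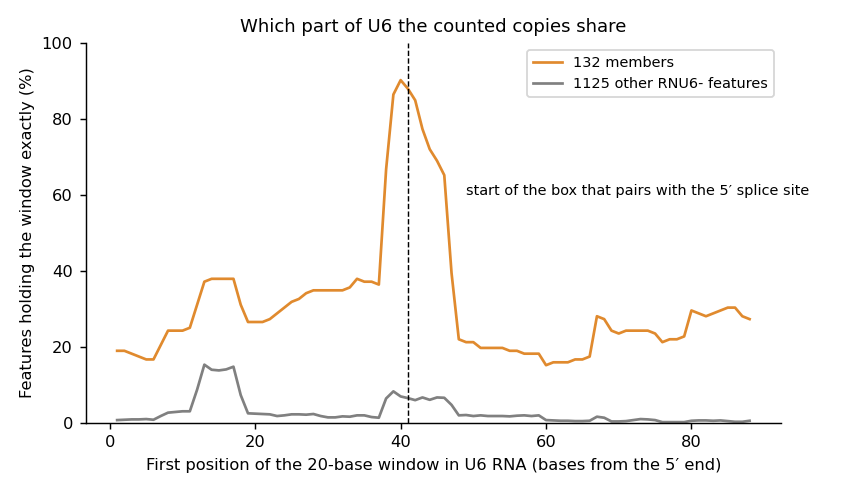
Share of features (%) that hold each 20-base window of RNU6-1 exactly, by the first position of the window in U6 RNA, for the 132 members and the 1125 other RNU6- features. The member curve peaks at 90.2% for the window from position 40, beside the start of the box at position 41 (dashed line), where the others stand at 6.93%.

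The member with the highest count was a pseudogene that shares only short exact runs with functional U6, although its identity of 89.7% equalled the median of the members. RNU6-1189P (ENSG00000206685.1, chrX:47087506-47087612, in an intron of RGN on the same strand) had 20, 62, 14 and 22 counts, 118 in all, against 84 for RNU6-9. It carries 11 substitutions (G12A, A22C, A30G, C42G, C62T, G67A, C79T, T86G, G88A, C94A and T96C) and was the only member that shares no 20-base window with RNU6-1. Its closest relatives by shared run were RNU6-686P with a run of 37 bases and 8 counts, RNU6-463P with 36 bases and 16 counts, and RNU6-1037P with 36 bases and 11 counts. The count of RNU6-1189P was thus above that of each of these named relatives. Scaled by TMM it stood at 1.26 and 1.96 CPM in 52X T4A and 0.959 and 1.17 CPM in 52X WT, without overlap. Its log2 fold change was 0.62 ± 0.43 (SE) and did not pass (edgeR, adjusted p = 0.584), and 52X T4A replicate 2 alone gave 62 of its 118 counts.

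A trio of pseudogenes, picked after their values were seen, had counts that tracked each other in every library. RNU6-804P (ENSG00000207013.1, chr5:86663144-86663250) had 11, 21, 5 and 8 counts. RNU6-1020P (ENSG00000200554.1, chr9:125303920-125304026, in an intron of GAPVD1 on the opposite strand) had 10, 22, 5 and 7 counts. RNU6-1084P (ENSG00000199368.1) had 12, 24, 5 and 8 counts. They differ from RNU6-1 at 11 to 13 positions and from each other elsewhere, but of all 1257 RNU6- features they alone hold a run of 26 bases with C61A, at positions 40 to 65, which takes in the common window. Together the trio held 2.04 and 2.45 CPM of library totals in 52X T4A and 0.926 and 1.20 in 52X WT, a log2 ratio of 1.08 on library totals. All 52X T4A values lay above all 52X WT values, and since the trio was chosen for its counts no test is given.

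Members lay on 22 chromosomes, with 60 of 132 on the plus strand, and none overlapped another listed feature. In GENCODE v44lift37, 77 members (58.3%) were in introns of protein-coding or lncRNA genes, 55 were intergenic and 0 were exonic. Of the other 1125 RNU6- features 59.1% were intronic, 36.8% intergenic and 4.09% exonic. Within genes, 36 members were on the strand of the host and 41 on the opposite strand. Of the copies identical to RNU6-1, RNU6-3P lay in an intron of LDOC1 and RNU6-4P in an intron of SOX2-OT, both on the host's strand, and RNU6-6P was intergenic, and their counts did not stand apart from each other.

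At the threshold, 13 members held exactly 10 counts and 17 features just outside held 9. RNU6-1005P, just inside, had 1, 3, 1 and 5 counts, and RNU6-1311P had 2, 3, 2 and 3. RNU6-1075P, just outside, had 3, 5, 0 and 1 counts and RNU6-115P had 2, 3, 1 and 3. Since they were picked by their summed counts, the likeness in level of the features on both sides was fixed by the choice. A feature named only U6 and outside the rule, ENSG00000271923.1, held 15 counts (2, 10, 1 and 2).

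As a family, U6 took a larger share of the 52X T4A libraries. The members summed to 830 counts in 52X T4A replicate 1, 1393 in replicate 2, 611 in 52X WT replicate 1 and 720 in replicate 2. As CPM of library totals these were 51.3 (95% Clopper-Pearson interval 47.9 to 54.9), 50.9 (48.3 to 53.6), 37.7 (34.8 to 40.8) and 37.6 (34.9 to 40.4). The intervals, which cover counting error only, did not overlap between the groups. The group means were 51.1 ± 0.283 and 37.7 ± 0.104 CPM (SD, n = 2 each), 1.36-fold or 0.44 on the log2 scale. Both SDs were far below the counting error shown by the intervals, so they do not measure the spread between replicates. After TMM scaling the values were 52.4, 44.1, 41.9 and 38.2 CPM, with means of 48.3 ± 5.88 and 40.05 ± 2.56, and the log2 ratio was 0.27. The groups still did not overlap, but the gap between 52X T4A replicate 2 and 52X WT replicate 1 was smaller than the spread within 52X T4A. With TMM the ratio depended on single libraries, at 0.12 without 52X T4A replicate 1 and 0.40 without 52X T4A replicate 2. With 2 libraries per group the smallest two-sided exact permutation p is 0.333, and the sum is given without a test. The muscle and leukocyte miRNA genes above were higher in the same libraries, and their part in the family value was not tested. In bulk RNA, fewer cells of a kind and less RNA per cell cannot be told apart. On library totals the median log2 fold change of all 1480 tested features was 0.14, and with TMM it was -0.05.

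**Figure D3:**
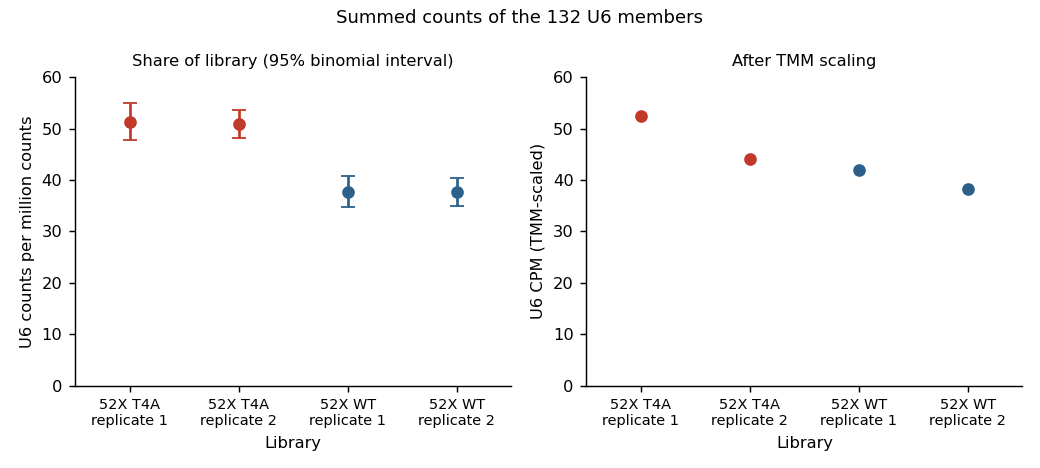
Summed counts of the 132 U6 members in each library, as CPM of library totals with 95% binomial intervals (left) and as TMM-scaled CPM without intervals (right). The 52X T4A libraries stand at 51.3 and 50.9 and the 52X WT libraries at 37.7 and 37.6 on the left, and at 52.4, 44.1, 41.9 and 38.2 on the right.

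The ratio was about as large without the threshold on members. With every RNU6- feature summed, whatever its count, the log2 ratio on library totals was 0.46, and it was 0.47 without the functional genes. The functional genes alone had a log2 ratio of 0.23. By longest match to RNU6-1, the summed counts of all RNU6- features had log2 ratios of 0.30 for 90 bases or more, 0.21 for 60 to 89, 0.50 for 40 to 59, 0.61 for 30 to 39, 0.62 for 25 to 29, 0.47 for 20 to 24 and 0.82 for shorter matches. All of these were above 0, and the copies closest to functional U6 had the lower values. The bin of shorter matches held 177 counts, of which 118 came from the pseudogene with the highest count of all members. That pseudogene alone had a log2 ratio of 0.80, and 52X T4A replicate 2 gave 62 of its 118 counts. Its ratio was no higher than that of the bin, so the value of 0.82 was not raised by it. In 52X T4A replicates 1 and 2 and 52X WT replicates 1 and 2 the bin held 33, 90, 20 and 34 counts. Of these the pseudogene held 20, 62, 14 and 22, which left few counts for the other features of the bin. Whether the bins differ was not tested.

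Among other RNAs of the spliceosome and of RNA polymerase III, U6 was not alone on library totals. The other families were not compared after TMM scaling, which took the log2 ratio of U6 from 0.44 to 0.27. Their overlap or lack of it is therefore described for library totals only. U6atac, the minor spliceosome's counterpart of U6, held 1.05 and 1.32 CPM of library totals in 52X T4A and 0.926 and 0.835 in 52X WT. These values did not overlap, but they rest on 17 and 36 counts against 15 and 16. Binomial intervals overlapped, at 0.612 to 1.68 and 0.921 to 1.82 in 52X T4A against 0.518 to 1.53 and 0.477 to 1.36 in 52X WT. U6atac therefore did not separate the groups beyond counting error. Its main gene RNU6ATAC had 6, 11, 4 and 4 counts. U2, the pairing partner of U6 in the active spliceosome and a product of RNA polymerase II, stood at 588 and 568 CPM against 255 and 378, a log2 ratio of 0.87 with no overlap. U4, which chaperones U6 into the tri-snRNP, stood at 14.4 and 11.3 against 25.2 and 12.2, a log2 ratio of -0.54 with overlapping groups. U5, the third RNA of that particle, stood at 38.4 and 47.3 against 79.0 and 37.5, likewise overlapping. Both were highest in 52X WT replicate 1, where U6 stood at 37.7 CPM, close to its 37.6 CPM in 52X WT replicate 2. 5S rRNA, a transcript of RNA polymerase III, stood at 26203 and 25969 CPM against 17906 and 19997, a log2 ratio of 0.46 with no overlap. Set against it, U6 held 1.96, 1.96, 2.11 and 1.88 counts per 1000 counts of 5S rRNA, and the groups overlapped. Of the other RNAs made by RNA polymerase III, 7SL stood at 966 and 918 CPM against 621 and 865, a log2 ratio of 0.34 with no overlap, and 7SK and Y RNAs had log2 ratios of 0.24 and -0.47 and overlapping groups. U4atac had a log2 ratio of 0.47 with no overlap, whereas U1, U11 and U12, at 0.10, -0.46 and 0.21, overlapped.

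**Figure D4:**
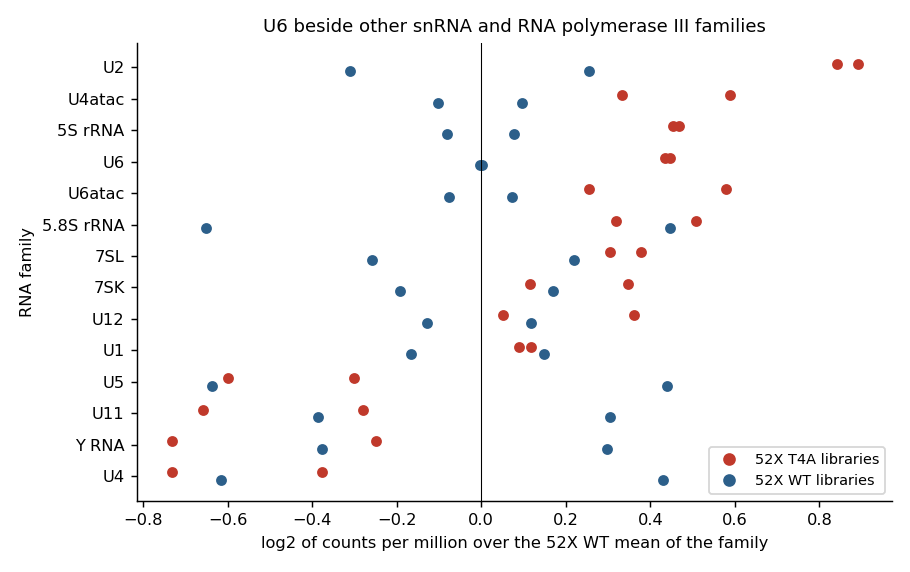
Log2 of each library's CPM (library totals) over the 52X WT mean of the family, for U6 and 13 other RNA families. The U6 libraries sit close together within each group, with 52X T4A 0.44 above 52X WT in the means, while the U4, U5, U11 and Y RNA values overlap between groups.

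Member by member, no U6 gene or pseudogene passed the test. Of the 132 members, 31 had counts high enough for edgeR (a filter near 0.566 CPM in at least 2 libraries), and these held 1924 of the 3554 counts. Of the 31, 15 exceeded the filter in all libraries, 7 in both 52X T4A libraries and 1 52X WT library, 5 did so through both 52X T4A libraries alone and 1 through both 52X WT libraries alone. With an FDR below 0.05 and a fold above 1.5, 0 members were called, where 0.135% of all 1480 tested features were, the microRNA genes MIR34C and MIR203B. At an unadjusted p below 0.05, 0 members were higher in 52X T4A (3.99% of all features) and 0 were lower (6.28%), and DESeq2 also gave 0 of 31 at that level. The lowest adjusted p among members was 0.480.

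The estimates leaned to one side within their errors. A log2 fold change above 0 was found for 20 of the 31 tested members (64.5%) against 46.1% of all features. The 52X T4A libraries lay above the 52X WT libraries without overlap for 11 members (35.5%; 18.9% of all features), and below them for 4 members (12.9%; 21.2% of all features). The tested members had a median log2 fold change of 0.15 against -0.05 over all features, with a range of -0.69 to 0.96 and SEs from 0.43 to 0.87. Without 52X WT replicate 2 the median was -0.03, without 52X WT replicate 1 it was 0.37, and leaving out 52X T4A replicate 1 or 2 gave 0.05 or 0.38. Since members passed the filter more often through 52X T4A than through 52X WT alone, and since copies of 1 sequence need not be independent, these counts support no more than a description.

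Among tested members without overlap, those with the largest differences were pseudogenes. RNU6-1084P stood at 0.758 and 0.760 CPM in 52X T4A and 0.343 and 0.425 in 52X WT, a log2 fold change of 0.96 ± 0.52 (SE; edgeR, adjusted p = 0.480). RNU6-42P (ENSG00000206892.1, in an intron of PAK2) had 12, 19, 5 and 7 counts and a log2 fold change of 0.89. RNU6-46P (ENSG00000206587.1) had 14, 21, 6 and 8 counts and 0.85, and RNU6-45P (ENSG00000207200.1) had 15, 30, 5 and 13 counts and 0.84. RNU6-1020P had 0.89. These 5 were picked among members without overlap, so the separation of their groups was fixed by the choice, and each SE was above 0.51. RNU6-1084P, RNU6-1020P, RNU6-42P and RNU6-46P, like RNU6-804P, passed the filter only through the 52X T4A libraries. Without 52X WT replicate 2 the value of RNU6-45P was 1.45, and without 52X WT replicate 1 it was 0.37. On the other side, after RNU6-18P at -0.69 (above), RNU6-29P (ENSG00000207367.1) had 8, 15, 11 and 11 counts and a log2 fold change of -0.44, RNU6-12P (ENSG00000207334.1) had 7, 18, 9 and 14 counts and -0.40, and RNU6-36P (ENSG00000206899.1) had 14, 27, 15 and 19 counts and -0.23. RNU6-12P has the same sequence as RNU6-13P and RNU6-32P, whose log2 fold changes were 0.51 and -0.10. With overlapping groups, RNU6-761P had 16, 13, 10 and 1 counts and a log2 fold change of 0.95 ± 0.87 (SE), and RNU6-15P had 5, 17, 7 and 14 counts and -0.47.

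The functional genes lay near the middle of this range. Their log2 fold changes were -0.18 ± 0.49 (SE) for RNU6-1, 0.50 ± 0.53 for RNU6-2, -0.03 ± 0.45 for RNU6-7, 0.15 ± 0.51 for RNU6-8 and -0.14 ± 0.47 for RNU6-9, with adjusted p from 0.730 to 0.991 (edgeR). For RNU6-7 and RNU6-9 the sign turned with library totals as the scale, to 0.16 and 0.03. Of the pseudogenes identical to RNU6-1, RNU6-6P had 19, 32, 6 and 16 counts and 0.76 (1.40 without 52X WT replicate 2, 0.27 without replicate 1), RNU6-4P had 18, 31, 12 and 12 counts and 0.53, and RNU6-3P had 15, 29, 16 and 15 counts and -0.01. RNU6-33P, with 1 substitution, had 17, 30, 15 and 15 counts and 0.15. The 7 members with exactly the sequence of RNU6-1, among them RNU6-5P at 0.05, spanned -0.18 to 0.76, with SEs of 0.46 to 0.53 each.

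**Figure D5:**
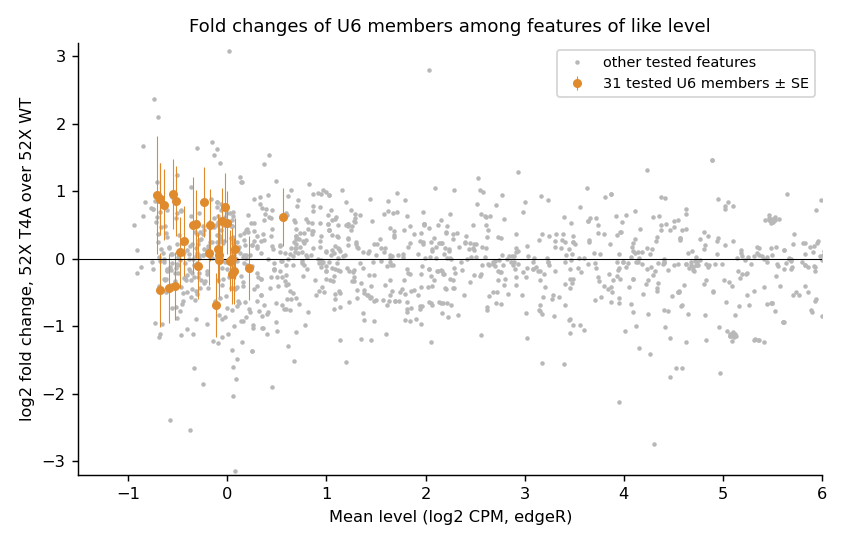
Log2 fold change of 52X T4A over 52X WT (edgeR, TMM) against the mean level in log2 CPM, for the 31 tested U6 members with their SE and for the other tested features (grey), of which 301 lie outside the axes. The members sit at the low end of the levels, between -0.69 and 0.96, and the error bars of most cross 0.

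Without a filter on low counts all 132 members were tested, and 2 pseudogenes fell below an unadjusted p of 0.05, neither of which passed the adjusted test. RNU6-207P had 5, 11, 0 and 1 counts (edgeR, adjusted p = 0.199) and RNU6-1152P had 6, 9, 0 and 1 counts (adjusted p = 0.227). Both were at 0 in 52X WT replicate 1, where 3 counts is the limit that a count of 0 allows, and at 1 count in replicate 2, so no fold is given.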

How the data were processed

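The authors deposited 1 table of raw counts per library, with no normalization. Per the submitters' processing notes these were made with cutadapt 4.6, Bowtie2 2.3.5.1 and featureCounts 1.5.0 on hg38. The annotation, the treatment of reads that match several loci and the strand setting are not given in the sources used here. Ensembl identifiers matched GENCODE v44lift37 for 5579 of 7062 features and gave their symbols and sequences. For 4 members the sequence and the deposited feature differ in length. No coordinates were converted. The sequences themselves are not reported here.

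The members and lists were chosen with earlier results of these data known. Named members were the functional genes, the 10 highest counts, the 5 largest log2 differences in each direction among tested members without overlap (4 were lower) and features at the threshold. The adjusted p came from the quasi-likelihood test of edgeR 4.0.16 (R 4.3.3; filterByExpr with a minimum count of 10, TMM factors, Benjamini-Hochberg over 1480 features), and the SE is the log2 fold change divided by the square root of F. DESeq2 1.42.0, other scalings and filters, and omission of each library were alternatives. The fit was tested on simulated data. CPM on library totals divides by all counts, and TMM CPM by scaled totals. The replicates were presented as biological, and p-values measure only the spread between these libraries. Library totals of 16180790 to 27370127 left most members with counts too low to test.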

Additional observations from a re-analysis of the deposited data

How the results depend on the processing

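No member was called under any edgeR alternative, among them other scalings and filters, robust fitting, an FDR below 0.1 at any fold and omission of each library (0 called in each). With DESeq2 all 31 tested members had no adjusted p, so no count of calls is given. At an unadjusted p below 0.05 there were 2 members, both higher in 52X T4A, with no filter on low counts and 2 without 52X WT replicate 1. The log2 ratio of the family was 0.44 on library totals and stayed above 0 throughout: 0.27 with TMM, 0.30 with RLE factors, 0.43 with upper quartile factors, 0.64 as a share of counts outside miRNA features, 0.47 without the functional genes, 0.46 for every RNU6- feature and 0.80 at a threshold of 100, which leaves only RNU6-1189P. Leaving out 1 library at a time gave 0.43 to 0.45 on library totals and 0.12 to 0.40 with TMM. The median log2 fold change of tested members was 0.15 and ranged from 0.11 to 0.33 over the alternatives with all libraries. Among these, the fit with no filter took all 132 members. Omitting 52X T4A replicate 2 gave 0.38, omitting 52X WT replicate 1 gave 0.37, and omitting 52X WT replicate 2 gave -0.03. The fits with a library omitted tested 37 or 38 members in place of 31.

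Of 280 values of the 20 named members, 257 kept their sign and 23, from 6 members with estimates near 0, did not. With RLE factors RNU6-7 stood at 0.0057 and RNU6-3P at 0.025, with upper quartile factors RNU6-7, RNU6-9 and RNU6-3P at 0.14, 0.011 and 0.16, and with library totals at 0.16, 0.026 and 0.18. With no filter RNU6-7 stood at 0.0054 and RNU6-3P at 0.021, with DESeq2 RNU6-3P at 0.021, and with 1 feature per set of equal counts RNU6-7 at 0.022 and RNU6-3P at 0.040. With each library left out in turn, RNU6-1 ranged from -0.63 to 0.25, RNU6-7 from -0.16 to 0.062, RNU6-8 from -0.23 to 0.49, RNU6-9 from -0.49 to 0.19, RNU6-3P from -0.23 to 0.14 and RNU6-33P from -0.035 to 0.26. Of those that kept their sign, RNU6-6P ranged from 0.27 to 1.40, RNU6-45P from 0.37 to 1.45 and RNU6-2 from 0.090 to 0.92. The cause was not tested.

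Replicate numbers are shared by the groups, but nothing says that they pair libraries, and the correlation of same-numbered deviations was 0.0946 over all tested features and 0.352 over the tested members. With the replicate number as a block 0 members were called, against 18 of all features in place of 2, the median was 0.19, and RNU6-3P stood at 0.0084.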
